A study of Mus musculus with 2 samples.

Results

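Accessible chromatin at alternative internal promoters was described in mouse regulatory T cells, the CD4 lineage that expresses Foxp3 and holds immune responses in check. An internal promoter region was an accessible region whose midpoint lay within 500 bp of the start site of a protein-coding transcript that begins more than 5 kb downstream of the 5'-most start site of its gene. The region also had to lie more than 1 kb from any start site of another gene, and to overlap a region of the other library by at least 1 bp. These conditions use position and not strength, and they selected 1200 of the 64172 regions of replicate 1 that replicate 2 shared (1.87%). The 1200 regions belonged to 1071 of 21938 annotated protein-coding genes, or 4.88% of them.

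Many mammalian genes begin transcription at more than 1 place. A start inside the gene can leave the encoded protein unchanged while placing it under other regulatory DNA, or can replace the first coding exon and so change the protein's amino terminus. Promoters in mammals fall broadly into a class rich in CpG dinucleotides, often open in many tissues, and a CpG-poor class with more tissue-restricted use. In T cells, alternative promoters are known for the Runx family, for Foxp1, for the glucocorticoid receptor Nr3c1 and for the cyclic AMP phosphodiesterases, among others.

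The assay was ATAC-seq, in which a transposase cuts accessible DNA and tags it for sequencing. All samples formed 1 group of 2 libraries, numbered by the labels as biological replicates 1 and 2: primary regulatory T cells from C57BL/6NJ mice, with no genotype or agent stated and with sex and age not given. The labels link a protocol for differentiation of CD4 T cells and give 1 donor identifier to both libraries, so it is not shown that they came from separate animals, and their spread may be technical. Names of the deposited entries include 72 hours and the terms ASTARR and insert, which the sources used here do not explain. With 1 group there was no condition to compare and no test was made. The comparisons below are between kinds of region within the same libraries, and regions are not replicates.

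Replicate 1 held 68903 regions and replicate 2 held 78262, covering 51.2 and 58.7 Mb. Sequencing depth is unknown because the lists hold no counts. As a check of the label, all 5 regulatory T cell markers (Foxp3, Il2ra, Ctla4, Ikzf2 and Tnfrsf18) and all 5 general T cell markers had a region within 1 kb of a start site in both libraries. So did 1 of 2 CD8 T cell, 2 of 5 B cell, 2 of 5 myeloid, 2 of 3 NK, 2 of 3 erythroid, 0 of 3 hepatocyte and 1 of 3 neuronal markers. Cd79a, Csf1r, Lyz2, Ncr1 and Cd8a had none, whereas Pax5, Spi1 and Gata1 had one in both. A region marks accessible DNA, not transcription, and whether cells of other types added regions was not tested.

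The upstream DNA of 8 starts is shown. The pairs of Runx1, Runx3 and Ets1 show a contrast described here, that between CpG-rich and CpG-poor starts within a gene. Each run is the 120 bases before the start site, 5′ to 3′ in the direction of the transcript, from the reference genome of build GRCm38 (mm10), with every CG pair in capitals. For Runx1, Runx3 and Ets1, transcription factor genes of the T cell lineage, the internal start is paired with the 5'-most start of the same gene. Dnmt3a, a de novo DNA methyltransferase with a known short form made from an internal promoter, and Zfp617, a zinc finger gene with one of the strongest regions, have their internal start shown.
Runx1 internal start (chr16:92697329-92697448, minus strand): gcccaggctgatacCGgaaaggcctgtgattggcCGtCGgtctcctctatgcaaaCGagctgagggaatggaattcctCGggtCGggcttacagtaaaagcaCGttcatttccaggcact
Runx1 5'-most start (chr16:92826150-92826269, minus strand): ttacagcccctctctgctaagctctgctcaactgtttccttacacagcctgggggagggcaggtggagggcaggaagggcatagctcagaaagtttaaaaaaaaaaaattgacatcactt
Runx3 internal start (chr4:135152376-135152495, plus strand): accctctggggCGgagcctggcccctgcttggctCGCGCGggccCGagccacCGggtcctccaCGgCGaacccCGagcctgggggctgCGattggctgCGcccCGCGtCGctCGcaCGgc
Runx3 5'-most start (chr4:135120532-135120651, plus strand): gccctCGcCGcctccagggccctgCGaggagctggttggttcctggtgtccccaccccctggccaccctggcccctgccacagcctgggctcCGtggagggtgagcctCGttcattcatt
Ets1 internal start (chr9:32695902-32696021, plus strand): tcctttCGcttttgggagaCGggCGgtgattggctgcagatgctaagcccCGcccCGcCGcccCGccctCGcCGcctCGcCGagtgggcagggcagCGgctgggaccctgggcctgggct
Ets1 5'-most start (chr9:32636101-32636220, plus strand): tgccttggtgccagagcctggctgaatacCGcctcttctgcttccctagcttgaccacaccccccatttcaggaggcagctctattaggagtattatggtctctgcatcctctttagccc
Dnmt3a internal start (chr12:3891608-3891727, plus strand): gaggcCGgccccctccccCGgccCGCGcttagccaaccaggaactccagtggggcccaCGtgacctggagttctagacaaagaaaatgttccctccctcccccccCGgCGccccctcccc
Zfp617 internal start (chr8:71922732-71922851, plus strand): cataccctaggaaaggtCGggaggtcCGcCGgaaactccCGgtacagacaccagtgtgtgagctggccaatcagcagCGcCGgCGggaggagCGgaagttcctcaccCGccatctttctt

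Counted in these runs, the internal start of Runx1 had 7 CG pairs against 0 at its 5'-most start. Runx3 had 16 against 5, and Ets1 had 12 against 1. The Dnmt3a internal run held 7 and the Zfp617 run 9. GC content was higher at the internal start in each of the 3 pairs, with 55.0% against 47.5% for Runx1, 78.3% against 70.0% for Runx3 and 73.3% against 54.2% for Ets1. These pairs show the less common direction: of 564 genes with a region at both starts, described below, 76 were CpG-rich at the internal start only and 254 at the 5'-most start only.

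Strength was compared by the signal that the authors' lists give each region, as its percentile within the list of the same library, where 100 is the strongest. Internal promoter regions had a median signal of 8.43 in replicate 1 and 8.51 in replicate 2. Regions at the 5'-most start of a gene, chosen with the same 500 bp window and the same distance from other genes, had medians of 11.5 and 11.6. Regions in introns more than 1 kb from any start had medians of 6.02 and 6.25. As percentiles, the medians were 64.6 and 67.9 for the 1200 internal promoters, 82.4 and 84.0 for 7309 regions at 5'-most starts, and 45.2 and 51.6 for 23168 intronic regions. Averaged over the libraries, these were 66.3 ± 2.33, 83.2 ± 1.15 and 48.4 ± 4.50 (SD, n = 2). Internal promoters thus lay between the other kinds of region in both libraries, by more than the spread between libraries.

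The internal promoter regions were spread widely in strength. Their quartiles stood at percentiles 39.6 and 85.3 in replicate 1 and at 45.6 and 86.1 in replicate 2. Of these regions, 17.5% in replicate 1 and 18.8% in replicate 2 stood above the 90th percentile of the list, whereas 34.2% and 36.01% of regions at 5'-most starts and 4.64% and 5.94% of intronic regions were. Across the 1200 regions, the signals of the libraries had a Spearman rank correlation of 0.968, a description over regions that share the same libraries. In width the internal regions, with medians of 976 and 1070 bp, also lay between those at 5'-most starts (1133 and 1203 bp) and those in introns (566 and 642 bp).

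**Figure D1:**
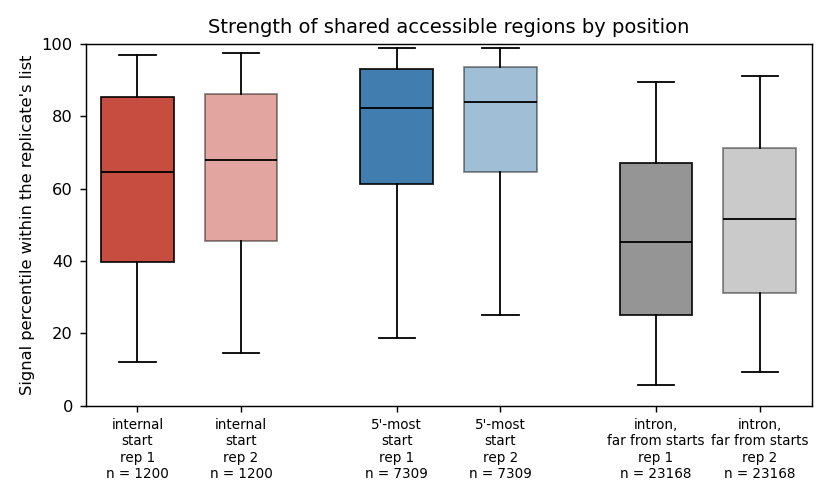
Signal percentile within each replicate's list (vertical axis, 0 to 100) for shared regions at internal starts, at 5'-most starts and in introns over 1 kb from any start, with replicates side by side. Boxes give quartiles, lines medians and whiskers the 5th and 95th percentiles of regions; in both replicates the internal starts, with medians of 64.6 and 67.9, lie between the other kinds.

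Position relative to the start was also measured, by the deposited summit, the point of highest signal in a region. Summits of internal promoter regions lay at a median of -29.5 bp from the start in replicate 1 and -35 bp in replicate 2, where negative is upstream, while those at 5'-most starts lay at 6 bp in both. Of the internal summits, 59.3% and 58.8% were upstream, against 47.8% and 47.3% at 5'-most starts. Fewer were close to the annotated start, with 44.8% and 44.4% within 100 bp against 58.0% and 57.3%. The start site itself fell inside the region for 1094 of the 1200 (91.2%). Because the rule already required the midpoint to lie within 500 bp, only the fine position is a measurement here.

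**Figure D2:**
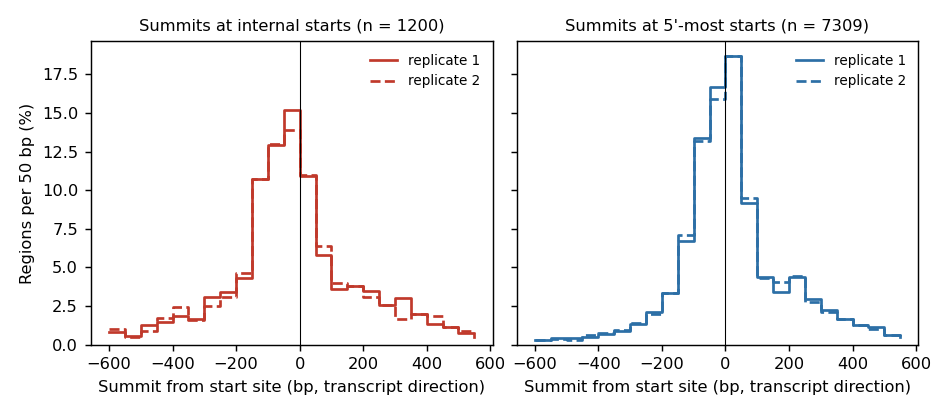
Distance from the start site to the region's summit in bp along the transcript (horizontal axis, negative is upstream) against the percent of regions per 50 bp, for 1200 internal and 7309 5'-most starts in each replicate. Internal summits are more often upstream (59.3% and 58.8%) than those at 5'-most starts (47.8% and 47.3%), and the replicates trace nearly the same curve.

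CpG content separated the internal promoters into groups of unlike strength. A start was counted as CpG-rich where the 200 bp to either side had a GC content of at least 50% and a ratio of observed to expected CpG of at least 0.6. By this measure 547 of 1200 internal promoter regions (45.6%) were CpG-rich, against 5633 of 7309 regions at 5'-most starts (77.1%) and 249 of 23168 intronic regions (1.07%), the last measured around the summit. The CpG-rich internal promoters had median percentiles of 77.5 and 79.7 and a median width of 1196 bp in replicate 1. The other 653 had median percentiles of 53.5 and 59.6 and a width of 779 bp, nearer to the intronic regions.

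How often an annotated start was accessible was then counted over starts, whether or not they held a region. Of 9801 internal start sites that met the distance conditions, 2057 had a shared region with its midpoint within 500 bp, a background of 21%. Several internal starts can lie within 500 bp of the same region and each was counted, so these 2057 starts stand beside 1200 regions. Distance to other genes was also measured here from the start site and in the set from the region. Among 16984 5'-most starts under the same distance condition, counted once per gene, 7322 had such a region, or 43.1%. Within CpG-rich starts the shares were nearly level, at 77.8% of 1430 internal and 82.4% of 6850 5'-most starts. Among starts that were not CpG-rich they were 11.3% of 8371 and 16.6% of 10134. The internal starts were thus CpG-rich far less often, and the shares of the matched classes differed by fewer percentage points than the shares of all starts did.

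**Figure D3:**
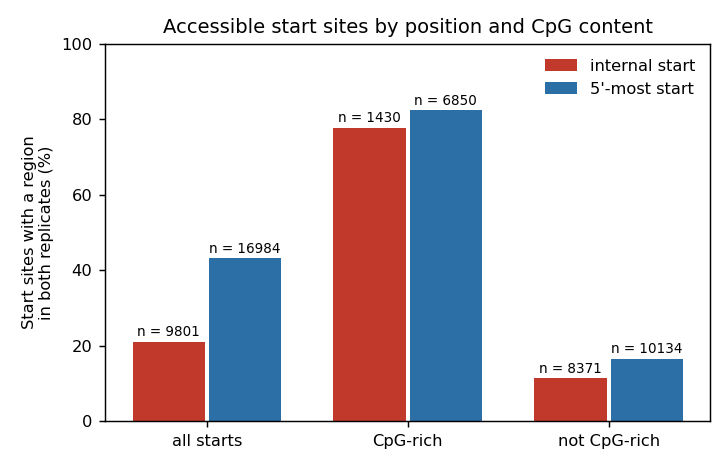
Percent of annotated start sites with a region in both replicates (vertical axis) for internal and 5'-most starts, over all starts and split by CpG content, with the number of starts above each bar. The bars differ most over all starts (21% and 43.1%) and less within CpG-rich starts (77.8% and 82.4%).

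An open 5'-most start did not go with a much higher or lower share of open internal starts. In genes with a region at the 5'-most start, 20.1% of 5250 internal starts had a region, and in the other genes 22.1% of 4551 did. For CpG-rich internal starts the shares were 82.3% and 74.2%, and for the rest 11.6% and 10.9%. Annotation quality went with larger differences. Internal starts of a principal transcript, the annotation's main protein form, had a region in 30.0% of 2370 cases, and the remaining 7431 in 18.1%. Starts supported only by transcripts annotated as incomplete at the 5' end had one in 4.83% of 3083 cases, against 28.4% of the other 6718.

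The letters at the start site gave a reading independent of accessibility. Mammalian polymerase tends to begin on a purine that follows a pyrimidine. This pair stood at positions -1 and 1 in 43.7% of internal promoter regions, against 21.7% at the same pair of positions 50 bp downstream. At 5'-most starts with a region the shares were 53.2% and 23.3%. Internal starts with no region had it in 33.5%, with 21.2% downstream. It was found at 27.8% of the 126 internal regions whose transcripts were all incomplete, with 17.5% downstream, and at 45.5% of the other 1074.

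Short motifs were counted in a window of 200 bp, from 150 bp before to 50 bp after the start, on both strands. None of the motifs named here contains another. GGGCGG, the core bound by SP and KLF factors, was found at 43.8% of internal promoters, at 62.1% of 5'-most starts with a region, at 39.8% of all 21938 5'-most starts and at 8.79% of internal starts with no region. Among CpG-rich internal promoters the share was 71.7%, beside 70.9% of CpG-rich 5'-most starts with a region. Among those not CpG-rich it was lower at internal promoters, at 20.5% beside 32.5%. CCGGAAG, an ETS motif, was found at 11.2% of CpG-rich and 4.44% of other internal promoters, at 13.9% of 5'-most starts with a region and at 9.46% of all 5'-most starts. GCGCANGC, bound by NRF1, was found at 17.0%, 2.76%, 16.8% and 10.6% of the same sets. The 5'-most starts in these sets were not split by CpG content. Among CpG-rich 5'-most starts with a region, the ETS motif was found at 16.2% and the NRF1 motif at 20.6%. Among other 5'-most starts with a region the shares were 6.03% and 4.24%. Within each CpG class, the ETS and NRF1 motifs were thus less common at internal promoters. CCAAT, bound by NF-Y, was found at 22.8% of internal promoters and at 30.7% of 5'-most starts both with a region and in all. TATAAA, the TATA box, was found at 4.50% of internal promoters, 3.71% of 5'-most starts with a region and 8.41% of all 5'-most starts. In the CpG-rich class its shares were 2.01% of internal promoters and 2.89% of 5'-most starts with a region. In the other class they were 6.6% and 6.4%. Of the starts shown above, the windows of the Runx3, Ets1 and Dnmt3a internal starts held GGGCGG. The pentamer CCAAT stood at the internal starts of Runx1, Runx3, Ets1 and Zfp617 and at the 5'-most start of Runx1.

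Motifs common at T cell enhancers followed the CpG classes in the other direction. The 3 counted here have no CG pair in their fixed letters, so these differences depend in part on how the classes were made. In 200 bp centred on the summit, TGANTCA, the AP-1 motif, was found in 4.02% of CpG-rich and 15.2% of other internal promoter regions. Its share was 23.8% in intronic regions, 2.26% at CpG-rich 5'-most starts and 8.65% at other 5'-most starts with a region. TGTGGTT, a RUNX motif, was found in 0.548% of CpG-rich and 7.35% of other internal regions, and in 10.98% of intronic ones. TTCNNNGAA, the STAT motif, was found in 1.46%, 10.4% and 16.3% of the same sets. All 21938 5'-most starts were read from 150 bp before to 50 bp after the start, not around a summit. There these 3 motifs were found in 4.42%, 3.38% and 5.18%. A match is a description of letters and does not show binding.

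What the internal start encodes was read from the annotation, for the internal start nearest the midpoint of each region. Its complete transcripts were compared with complete coding transcripts that begin over 5 kb further upstream. Other internal starts near the same region were not read. At 525 of the 1200 regions (43.8%) the internal transcripts began translation at a codon of their own, and at 427 (35.6%) they shared the start codon of a transcript that begins further upstream. A further 122 (10.2%) had no complete coding transcript upstream, and 126 (10.5%) had only incomplete transcripts. Of 524 starts with a codon of their own and lengths on both sides, 345 (65.8%) had a coding sequence shorter than the longest upstream one, and the median length was 87.3% of it. The coding sequence was under 50% of the upstream one at 160 starts. Only transcripts incomplete at the 5' end were set aside, and those cut off at the 3' end were kept. Some of the shorter lengths may therefore be truncated annotation, and how many was not counted. Median percentiles were 65.4 and 69.5 for starts with a codon of their own and 63.4 and 66.9 for shared codons. They were higher, at 73.1 and 76.1, for the 122 with no coding start upstream, of which 68.9% were CpG-rich. They were lowest, at 51.6 and 57.2, for incomplete transcripts, of which 19.8% were CpG-rich.

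Distance from the 5'-most start had a median of 23.6 kb, with quartiles of 10.8 and 60.2 kb and a range of 5.00 to 2857 kb. The 161 regions more than 100 kb downstream had median percentiles of 58.1 and 61.7, and 38.5% were CpG-rich. The 265 at 10 to 20 kb had the highest medians, 69.3 and 72.8, with 48.3% CpG-rich, and the 276 at 5 to 10 kb had 64.9 and 68.3. There was no steady trend below 50 kb.

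A gene's own 5'-most start gave the closest comparison. No distance from other genes was required of it, so its region may be shared with another gene's start. Of the 1071 genes, 564 (52.7%) also had a shared region with its replicate 1 midpoint within 500 bp of the 5'-most start, beside 50.2% of all protein-coding genes (11022 of 21938). The share among genes with an internal promoter was therefore near the background. In 36 genes a midpoint lay in that window without a shared region of replicate 1 there, and in 471 (44.0%) none did in either library. The window bears strongly on this. Where any region overlapping 1 kb to either side of the 5'-most start was counted, a definition chosen after seeing the data, 718 genes (67.0%) had one in both libraries and 320 (29.9%) in neither. The share over all protein-coding genes was not counted for this definition.

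In the 564 genes with both kinds of region, the internal one had median percentiles of 65.8 and 69.6 and the 5'-most one 76.3 and 78.7. The strongest internal region exceeded the 5'-most one in both libraries in 210 genes (37.2%), and was weaker in both in 310 (55.0%). In 44 genes (7.80%) the libraries differed in direction. CpG content of the pair went with the order. Where only the internal start was CpG-rich, the internal region was the stronger in 55 of 76 genes (72.4%). Where only the 5'-most start was CpG-rich, it was in 47 of 254 (18.5%). With both CpG-rich the count was 75 of 163 (46.0%), and with neither 33 of 71 (46.5%).

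**Figure D4:**
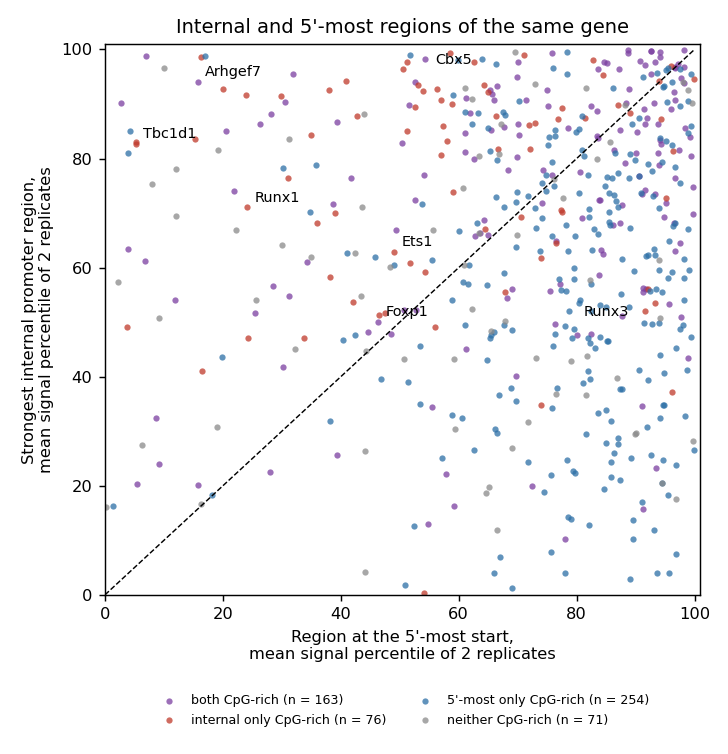
Mean signal percentile of the strongest internal region (vertical axis) against that of the region at the 5'-most start (horizontal axis), 1 point for each of 564 genes, coloured by which start is CpG-rich; the dashed line marks equal strength. Genes with only the internal start CpG-rich lie mostly above the line (55 of 76 stronger in both replicates) and those with only the 5'-most start CpG-rich mostly below it (47 of 254).

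The 320 genes with no region overlapping 1 kb around the 5'-most start in either library had median internal percentiles of 73.6 and 76.2. Their internal start was CpG-rich in 202 (63.1%) and their 5'-most start in 18 (5.63%). The internal start was that of a principal transcript in 154 (48.1%). Over all 1071 genes, the internal promoter was the strongest shared region of the whole gene in 404 (37.7%), where a gene held a median of 5 shared regions. A gene with no other shared region counts here by construction. No matching share was counted for other kinds of region.

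The list of T cell genes with promoters known to be alternative held 24 genes. Of the 4960 genes with an internal start that met the distance conditions, 1078 had a shared region there, a background of 21.7%. In the list 13 of 15 did. This list was chosen with earlier results of these data known, so the count is a description. The 13 genes held 19 internal promoter regions. Taking the strongest of each gene, the median percentiles were 54.6 and 64.2 over the 13 genes, below the 67.8 and 70.4 over all 1071.

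Runx1, a transcription factor that acts with Foxp3, has a distal promoter and an internal proximal promoter that give proteins with different amino termini. The internal region, at chr16:92696722-92698928, lay at a start 129 kb into the gene. The signals of replicates 1 and 2 were 8.74 and 9.80 there and 4.07 and 3.89 at the distal start. As percentiles these were 66.7 and 75.5 against 22.8 and 25.3, so the internal, CpG-rich start was the stronger in both libraries. The CpG ratio was 0.985 at the internal start and 0.184 at the distal one. The gene's span held 26 shared regions in all, several of them stronger than the internal promoter.

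Runx3, which drives cytotoxic T cell programmes, has the same arrangement, with a CpG-rich internal start (CpG ratio 1.00) and a distal start that is not CpG-rich (0.245). Its order was the opposite of that in Runx1. The internal region at chr4:135152031-135153923 had a signal of 6.53 and 6.55, and the distal one 13.0 and 14.6. These were percentiles of 49.8 and 54.3 at the internal start against 88.8 and 94.5 at the distal start, 31.8 kb upstream. In both genes the libraries gave the same order.

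Ets1, an ETS-family factor of lymphocytes, had its CpG-rich principal start 59.8 kb downstream of the 5'-most one, which belongs to a transcript with a retained intron. The internal region at chr9:32694972-32696477 had signals of 7.98 and 7.93 and the 5'-most one 5.97 and 6.51. The percentiles were 61.5 and 64.3 against 44.5 and 53.8. Here the internal start is that of the annotation's main protein form. Satb1, a chromatin organiser of T cells, gave the other order, with 45.3 and 49.98 at a principal internal start that was not CpG-rich and 67.5 and 63.6 at the 5'-most start.

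Foxp1, a forkhead factor of naive T cells, held 3 internal promoter regions among the 65 shared regions of its 597 kb span. Those at 426 and 494 kb had percentiles of 48.1 and 48.3, and of 47.3 and 52.9, close to the 43.8 and 48.9 of the 5'-most start. The one at 256 kb, at a principal start, was weak, with 14.6 and 10.2. Gata3, the T helper 2 regulator, had signals of 6.18 and 5.72 at an internal CpG-rich start 11.4 kb downstream, with percentiles of 46.2 and 46.9. The summit of this Gata3 region lay at -1033 bp from the start in both libraries. Prdm1, which encodes Blimp-1, had a strong internal region at 69.8 kb with signals of 13.0 and 12.3, percentiles of 88.7 and 86.9. Gata3 and Prdm1 had no region by midpoint at the 5'-most start, yet a region overlapped 1 kb around it in both libraries. In Prdm1 that included a region centred 1.04 kb upstream with percentiles of 90.4 and 97.4.

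**Figure D5:**
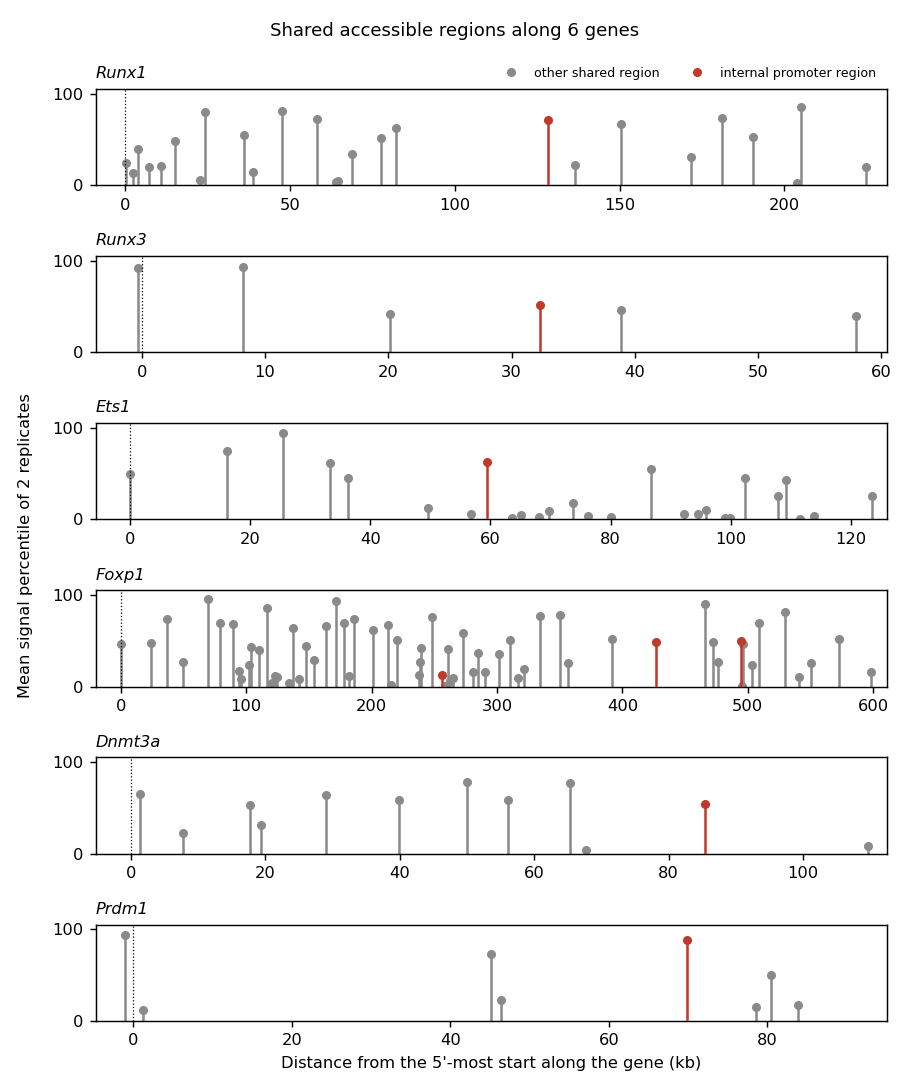
Mean signal percentile of 2 replicates (vertical axes) for every shared region along 6 genes against distance from the 5'-most start in kb (horizontal axes), with internal promoter regions in red and the 5'-most start as a dotted line. The internal region at 129 kb is taller than that at the 5'-most start in Runx1, and the reverse holds in Runx3.

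DNA methyltransferase genes stood at both levels. Dnmt1, the maintenance methyltransferase, had signals of 14.1 and 13.8 at a CpG-rich start 7.27 kb downstream, percentiles of 92.7 and 92.2, and no region at its 5'-most start by either definition. Dnmt3a had 6.48 and 7.30 at a start 85.7 kb downstream, percentiles of 49.5 and 59.9. The Dnmt3a start had a GC content of 71.1% but a CpG ratio of 0.461, so it did not count as CpG-rich. A region centred 1.29 kb downstream of its 5'-most start, with percentiles of 61.6 and 67.8, overlapped the wider window only.

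Crem encodes a cyclic AMP responsive factor whose internal promoter is known to give the short repressor ICER. Its internal region, 56.6 kb into the gene, had signals of 10.5 and 10.02 and percentiles of 77.1 and 76.8, against 78.9 and 84.8 at the 5'-most start. Nr3c1, the glucocorticoid receptor, had 53.8 and 57.1 at a principal start 28.7 kb downstream and 63.4 and 72.5 at the 5'-most start. The summits of its internal region lay 616 and 620 bp downstream of the internal start. In both genes the 5'-most region was the stronger in both libraries.

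The phosphodiesterases that degrade cyclic AMP had several. Pde4d held 5 internal promoter regions, the most of any gene, between 667 and 1485 kb downstream. The strongest, at 811 kb, had percentiles of 70.5 and 64.2 but rests on incomplete transcripts alone, and the weakest, at 667 kb, had 37.0 and 24.4. Pde4b had 1 region at 483 kb, with percentiles of 54.6 and 65.7. Pde4a had signals of 11.7 and 10.4 at an internal start 18.4 kb downstream, against 2.73 and 2.38 at the 5'-most start. Its percentiles were 83.2 and 78.7 against 4.31 and 3.32, although the 5'-most start was the one with the higher CpG ratio (0.774 against 0.565).

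The other 11 genes of the list had no internal promoter region. For 8 of them, among them Tcf7, Lef1, Ikzf1, Nfatc1, Bcl11b, Fli1 and Cd44, the annotation held no coding start more than 5 kb downstream, the farthest being at 4.90 kb in Nfatc1, so the rule could not take them. Both internal starts of Lck, the kinase of the T cell receptor coreceptors, lay too close to another gene, although a region was centred 263 bp from one of them. In Runx2 a region was centred 51 bp from an internal start that fails the distance condition and 890 bp from the 1 that meets it. Bach2 had no region nearer than 4244 bp to its internal start.

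The 10 internal promoters with the highest mean percentile all exceeded 99 in both libraries, and 9 of the 10 were CpG-rich. None of their genes stood in the 7 gene lists. Ccdc77 had signals of 19.7 and 19.7, Egf 19.5 and 19.6, and 5730480H06Rik 19.1 and 19.5. Egf encodes the epidermal growth factor precursor, and neither it nor 5730480H06Rik had a region at the 5'-most start by either definition. Zfp617 had 18.8 and 20.1 at the internal start and 17.5 and 15.9 at the 5'-most start, so both of its promoters were among the stronger regions of the lists. Dhx30, an RNA helicase, had 18.6 and 18.2 at a start with incomplete transcripts only, and Lcmt1, the methyltransferase of the protein phosphatase 2A catalytic subunit, had 18.01 and 18.6. Scoc had 18.7 and 18.4, Rnf14 18.5 and 18.01, and Atp6v1h, a subunit of the vacuolar proton pump, 17.8 and 18.5. Ankrd55 was the exception in CpG content, with a CpG ratio of 0.313 and signals of 17.5 and 18.8, against 9.20 and 8.78 at its 5'-most start.

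Among genes with no region within 500 bp of the 5'-most start, the strongest after Egf, 5730480H06Rik and Scoc were Fam118a, Gnl2, Ankrd24, Def8, Aqr, Asb8 and Stk3. Gnl2, a nucleolar GTPase, had percentiles of 99.1 and 99.5. Aqr, a helicase of the spliceosome, had 99.4 and 98.3, and Stk3, a kinase of the Hippo pathway, had 99.1 and 98.4. Of these 10 genes, Ankrd24 and Def8 had a region overlapping 1 kb around the 5'-most start in both libraries. None of the 10 had a CpG ratio above 0.462 at the 5'-most start, the value of Scoc.

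Most genes had a single internal promoter region: 962 had 1, 92 had 2, 15 had 3, Sept9 had 4 and Pde4d had 5. Regions of 1 gene share that gene, and 8 regions shared a replicate 2 region with another. Sept9, a cytoskeletal septin, had percentiles of 65.4 and 72.2 at its strongest internal start, 66.6 kb downstream and CpG-rich, and no more than 34.7 at the others. Its 5'-most start had 54.0 and 74.6, so the libraries differed in the order. Abr, Adcy7 and Arhgap22 had 3 each. In Abr, a GTPase regulator, they ranged from 26.7 to 83.4, and in Adcy7, an adenylyl cyclase, from 12.7 to 59.9. Arhgap22 had 11.98 and 14.5 at its weakest and 56.1 and 67.5 at its strongest.

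The remaining lists were read by counts beside the background of 21.7% of genes with an internal start that met the distance conditions. In the transcription factor list 20 of 29 such genes had a region, with median percentiles of 49.8 and 55.7 over genes. The medians of this and the following lists take the strongest internal region of each gene. Tcf12, an E protein gene, had 85.7 and 90 at an internal start 216 kb downstream with a CpG ratio of only 0.0687. It had 78.1 and 83.6 at its CpG-rich 5'-most start. Mxi1, an antagonist of Myc, had 72.5 and 75.7 against 20.9 and 22.9. In the cyclic AMP list 9 of 14 did, led by Pde4a and Crem.

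In the list of GTPase regulators 14 of 29 did, with medians of 59.7 and 66.2. Arhgef7, an exchange factor for Rac and Cdc42, had signals of 15.2 and 14.0 at the internal start against 4.06 and 2.84 at the 5'-most one, although both starts were CpG-rich. Tbc1d1, a Rab GTPase activating protein, had 11.6 and 11.3 against 2.97 and 2.41, and there only the internal start was CpG-rich. Asap1, an Arf GTPase activating protein, had percentiles of 82.0 and 77.9 against 63.4 and 61.8.

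The T cell signalling list had 10 of 28, with the lowest medians of the 7 lists, 45.8 and 47.2. Grb2, the adaptor that links receptors to Ras, had percentiles of 76.9 and 83.9 at the internal start and 79.6 and 83.0 at the 5'-most start, and the libraries differed in the order. Dgkz, a diacylglycerol kinase that dampens receptor signalling, had 60.1 and 65.2 against 40.2 and 41.8. Zap70, the kinase recruited to the T cell receptor, had 50.4 and 54.3 against 63.3 and 61.2. None of these 3 internal starts was CpG-rich.

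The chromatin list had 14 of 40, with the highest medians, 78.5 and 80.8. Cbx5, which encodes heterochromatin protein 1 alpha, had signals of 16.3 and 16.9 at an internal start that was not CpG-rich, against 8.13 and 8.04 at its CpG-rich 5'-most start. Smarcc1, a subunit of the SWI/SNF remodelling complex, had 15.2 and 15.0 against 14.2 and 14.0, and its 5'-most region was the one that Dhx30 also has. In the list of cytoskeleton and adhesion genes 22 of 39 did. Lmna, which encodes A-type lamins, had 90.3 and 91.4 at its stronger internal start against 61.1 and 63.3, and Tpm1, a tropomyosin, had 91.6 and 88.0 against 57.8 and 45.2. Dst, a linker of the cytoskeleton, had 3 internal regions, the strongest at 88.3 and 89.2.

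Foxp3 itself, the defining factor of the lineage, entered the set at the lower end. Its principal start, 5.92 kb downstream of the 5'-most one, had a region with signals of 3.21 and 2.48, percentiles of 10.2 and 4.01, with summits at -656 and -619 bp from the start. The 5'-most start of Foxp3 is not described here, so these values do not give the accessibility of the gene as a whole. Nfatc2 had percentiles of 50.4 and 57.5 at the internal start against 10.5 and 13.1 at the 5'-most one, and Stat5b had 45.4 and 41.7 against 14.1 and 25.7. These 3 genes were named after their values were seen.

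Regions close to the limits of the rule had no common level. Just inside and just outside 500 bp lay Abr at 500 bp, with percentiles of 37.0 and 26.7, and P2ry12 at 502 bp, with 59.4 and 55.8. For the 5 kb limit these were Ift46 at 5002 bp, with 92.0 and 89.5, and Pef1 at 4998 bp, with 96.1 and 95.1. For the 1 kb limit to other genes they were Rnf14 at 1009 bp, with 99.7 and 99.5, and Ank2 at 983 bp, with 51.1 and 33.4.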

How the data were processed

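Accessible regions of both libraries were taken from the deposited narrowPeak lists, 1 per library and made from its alignments alone, per the deposited notes. Each entry holds a signal that the authors gave the region, of unstated scale, and a −log10 q-value, whose lowest deposited value was 1.00 in both lists. The sources used here do not name the aligner or peak caller, or say how transposase offsets were handled. No depth is known, so no interval that needs one is given.

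Coordinates were compared with GRCm38 (mm10) chromosome lengths, which no entry passed. Analyses used chromosomes 1 to 19, X and Y, leaving out 71 and 84 regions. Start sites came from GENCODE M21, and sequences from the RefSeq copy of GRCm38, which was read at mm10 coordinates. Signal was ranked as a percentile within each list. For replicate 2 the overlapping region of highest signal was used. The set of regions at 5'-most starts met the same window and distance conditions. In comparisons within a gene, the region at the 5'-most start met the window condition only, with no distance from other genes required. Motifs were sought in 200 bp, 17 in all.

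The members, lists and rules were chosen with earlier results of these data known. Genes were named by a rule: all of the list of known alternative promoters, the 10 strongest, the 5 with most regions, the 10 strongest without a region at the 5'-most start, the top 3 of each other list, and those nearest the limits. Not every gene this rule takes is reported here. Sequences are shown for starts of the first 2 of these groups with no exon in most of the upstream window. Alternatives changed the window, distances, transcript set, overlap, strength limit and library. No test was made. The selection procedure was tested on simulated data. Tools were Python 3.11.15, NumPy 2.4.6, pandas 2.3.3, SciPy 1.17.1, pysam 0.24.0, samtools 1.23.1 and matplotlib 3.10.9.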

Additional observations from a re-analysis of the deposited data

How the results depend on the processing

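Over 7 results and 108 alternatives, 80 values stayed within their limits (1.5 times for counts, the spread of the libraries or the 95% exact binomial interval otherwise) and 28 moved. Restricting to transcripts of the basic annotation set left 645 regions in 594 genes, with 56.1% of genes open at the 5'-most start and 23.6% of internal starts with a region. A window of 250 bp gave a median percentile of 69.0, 35.8% of genes open and 14.0% of starts with a region. A window of 1000 bp gave 61.8, 65.6% and 26.9%, with 38.9% of regions CpG-rich. The 50000 entries of highest −log10 q gave 73.6, 48.3%, 17.9% and 50.3%. A −log10 q of at least 5 gave a median of 68.7 and 19.96% of starts, and ranking by −log10 q gave a median of 74.4. Without incomplete transcripts, 28.3% of starts had a region and 48.98% of regions were CpG-rich. Placing the 5'-most start by protein-coding transcripts gave 19.3% of starts, distance from protein-coding genes only 22.0%, and a distance over 2 kb 49.5% of genes open. Counting any region overlapping 1 kb around the 5'-most start, chosen after seeing the data, gave 67.0%. Leaving out each library in turn gave medians of 63.2 to 63.7, 21.6% to 22.2% of starts with a region and 41.5% to 44.5% CpG-rich. The causes were not tested. The share of genes with the internal region stronger stayed between 35.9% and 40.6% in all 16 alternatives run.

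The limits are 2 libraries of 1 group with the same donor identifier, unknown depth and a signal of unstated scale. No paired analysis was possible because there was 1 group and no test.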
